A study of Mus musculus with 7 samples.

Results

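The genes of cytosolic ribosomal proteins were read out in MS-1 cells, a line of mouse endothelial cells that came from islets of the pancreas, by sequencing of total RNA. Members were the rows of the deposited gene tables whose symbol begins with Rpl or Rps followed by a number, with or without the suffix a, x, l or l1, together with Rplp0, Rplp1, Rplp2 and Rpsa. This name rule, which uses no measured value, found 85 of the 49585 genes, 52 of the large and 33 of the small ribosomal subunit. The labels give 3 control libraries (genotype WT) and 4 libraries of MS-1 cells with overexpression of LPL, lipoprotein lipase, which frees fatty acids from triglyceride in the blood. All cells were grown in DMEM. The labels give neither the vector nor the species of the introduced LPL, nor whether the LPL cells are a clone, and no vector-only control was analysed here. They also do not say whether replicates are separate cultures, so p-values measure the spread between these libraries, which may be technical. In bulk RNA, fewer cells of a type and less RNA per cell cannot be told apart.

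Each cytosolic ribosome is built from a small subunit, which decodes the messenger, and a large subunit, which joins amino acids, and each subunit holds ribosomal RNA and many proteins that are made in balanced amounts. The messengers of these proteins begin with a C followed by a run of pyrimidines, the terminal oligopyrimidine (TOP) tract, through which mTORC1 and Larp1 control their translation. Several of the genes carry small nucleolar RNA (snoRNA) genes in their introns, and many have processed pseudogenes elsewhere in the genome.

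The start-site sequences of 10 members are shown because the TOP tract is the feature that defines the class, and because 6 of these members were called higher or lower. Each line runs 5′ to 3′ and holds 25 bases before and 15 bases from the start annotated by RefSeq (GRCm38.p6), with the first 5 transcribed bases in capitals. In the first 5 lines those bases are C followed by 4 pyrimidines, and in the last 5 they are not. The called members are Rpl14 and all of the last 5, a choice that does not show how the tract is spread over called and other members. Rps27l has another annotated start (chr9:66946388-66946427, not printed), where the first 5 bases are also not of that form. A start some bases away from the annotated one would change this reading. The last 5 lines therefore do not show that those messengers lack the tract.
Rps6, chr4:86857353-86857392, minus strand: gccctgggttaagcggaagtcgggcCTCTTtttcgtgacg
Rpl14, chr9:120571492-120571531, plus strand: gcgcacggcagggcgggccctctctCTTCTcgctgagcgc
Rpl15, chr14:18270972-18271011, minus strand: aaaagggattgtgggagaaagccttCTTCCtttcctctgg
Rpl38, chr11:114668555-114668594, plus strand: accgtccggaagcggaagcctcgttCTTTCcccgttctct
Rps10, chr17:27635230-27635269, minus strand: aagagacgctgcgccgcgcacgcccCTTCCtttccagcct
Rpsa, chr9:120127741-120127780, plus strand: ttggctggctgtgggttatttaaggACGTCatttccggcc
Rps27l, chr9:66946061-66946100, plus strand: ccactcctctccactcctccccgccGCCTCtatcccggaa
Rps13, chr7:116334176-116334215, minus strand: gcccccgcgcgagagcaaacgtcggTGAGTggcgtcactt
Rps12, chr10:23787195-23787234, minus strand: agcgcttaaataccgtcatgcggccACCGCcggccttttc
Rpl5, chr5:107900503-107900542, plus strand: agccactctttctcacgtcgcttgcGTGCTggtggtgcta

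RefSeq promoter windows of 300 bases were matched to 62 of the 85 members by symbol. A start of C and 4 pyrimidines stood at the annotated start of 13 of the 62 (21.0%), against 3.01% of 27025 genes with a window. The letters CCGGAAG, read on both strands as a form of the ETS factor motif, were in 25 windows (40.3%, against 9.93% of all genes). The letters AAGATGGC, a form of the YY1 motif read on both strands, were in 6 windows (9.68% against 3.19%). The TATA box letters TATAAA, again on both strands, were in 7 (11.3% against 15.7%). Of the 11 called members with a window, 1 (Rpl14) had the pyrimidine start and 3 had CCGGAAG. These matches describe letters around the annotated starts only, and a start that lies some bases away from the annotated one would change the first count.

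The libraries held 24328418 to 29210847 counted reads in the sense orientation of the kit, and reads of that orientation were 97.0% to 97.1% of all oriented reads. Lpl, the check of the labels, had 1, 1 and 6 reads in the controls and 10867, 12691, 10901 and 12753 with LPL overexpression, although gene counts do not separate an introduced sequence from the cell's own gene. The summed level of 15 endothelial markers was 7243 to 7312 CPM (here counts per 1000000 counted reads of the library, with no further scaling) in the controls and 6455 to 6609 CPM with LPL overexpression. In that marker list 2 of 13 tested genes rose and 8 fell, a called share of 76.9%. Over all genes tested the called share was 43.2% (21.9% higher and 21.3% lower). Sox17 had no read in either group and Cldn5 none with LPL overexpression. All 15 pigment cell markers were higher with LPL overexpression, with a sum of 3.59 to 3.998 CPM in the controls and 1478 to 1547 CPM in the other group. Of these, Dct, Mlana, Mlph, Oca2, Sox10, Tyr and Tyrp1 had no control read. Sums were 6.79 to 7.92 against 7.95 to 9.58 CPM for 11 islet and exocrine markers, of which Ins1, Ins2 and Sst had no read in any library, and 5.36 to 6.05 against 7.43 to 8.11 CPM for 9 mural and fibroblast markers, of which Dcn and Lum had none. Macrophage and blood markers summed to 70.6 to 75.9 against 95.4 to 104.9 CPM, with Adgre1 and Itgam at 0 in both groups. All these sums are on library totals. In these last lists edgeR called Cela1, Cspg4 and Cd68 higher (log2 fold change 4.46, 5.53 and 0.40) and Fcer1g lower (-0.85), all but Cd68 at low counts. Krt19, Pdgfrb and Pdgfra were tested and not called. Chga, Rgs5 and Csf1r had no control read but had reads with LPL overexpression. The marker sums move with the groups in every library, and the part of the marker genes in the ribosomal protein results below was not tested.

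Ribosomal protein genes held a like share of the RNA in both groups. They took 4.83% ± 0.0747 (SD, n = 3) of all counted reads in the controls and 4.88% ± 0.0638 (SD, n = 4) with LPL overexpression, with ranges of 4.75% to 4.89% and 4.81% to 4.96% that overlap. In the authors' length-scaled unit, TPM, which sums to 1000000 over all genes of a library, their share was 10.9% ± 0.120 and 11.0% ± 0.0974. The TPM of the large subunit divided by that of the small subunit was 1.32, 1.32 and 1.34 in the controls and 1.35, 1.36, 1.34 and 1.36 with LPL overexpression, and LPL overexpression replicate 3 lay within the control range.

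The highest levels were those of Rplp1, a protein of the large subunit stalk, at 7868 ± 204 TPM in the controls and 8670 ± 70.4 TPM with LPL overexpression, and of its partner Rplp0, at 5833 ± 87.1 and 5782 ± 52.7 TPM. Rps12 of the small subunit stood at 5703 ± 30.3 and 5501 ± 70.3 TPM, and Rpl8 at 5126 ± 97.7 and 5221 ± 76.3 TPM. Rpl32 (3866 ± 96.6 and 3857 ± 39.4 TPM) and Rps15 (3797 ± 129 and 3839 ± 73.9 TPM) followed. Within each group the libraries of Rpl32 and Rps15 overlapped in level, and every other pair of neighbours among these 6 was apart. At the low end of the tested members were Rpl22 (243 TPM in the controls and 245 with LPL overexpression), the Rpl7 paralogue Rpl7l1 (214 and 218 TPM), the Rpl22 paralogue Rpl22l1 (164 and 166 TPM), Rpl35a (155 TPM in both groups), Rpl13a (82.7 and 83.7 TPM) and Rpl24 (2.31 and 3.13 TPM). Rpl22l1 and Rpl35a overlapped in the controls, and the other neighbours at this end did not. The order of levels was nearly the same in both groups, with a Spearman rho of 0.999 across the 79 genes tested, which share their libraries and gene lengths. The order depends on the length used. The files' exonic length merges all annotated exons and was at least 2 times that of the gene's principal transcript for 44 of the 82 members that have one. With counts per length of the principal transcript instead, the order correlated with that of TPM at a rho of 0.706.

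**Figure D1:**
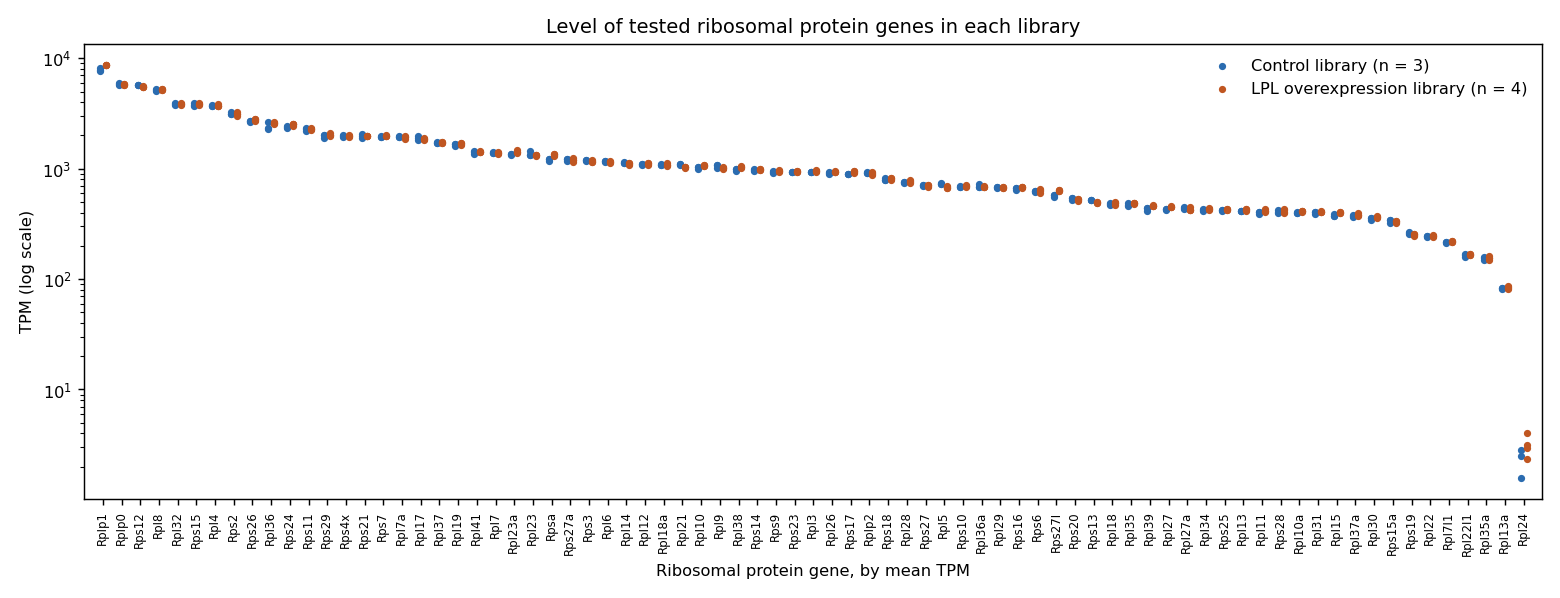
Level of 77 of the 79 tested ribosomal protein genes (x axis, ordered by mean TPM) in TPM on a log axis, with 1 point per library, blue for the 3 controls and orange for the 4 LPL overexpression libraries. The groups lie close to each other along the whole order, from Rplp1 at 7703 to 8755 TPM down to Rpl13a at 81.3 to 87.3 TPM. For some genes they do not overlap, such as Rplp1 (7703 to 8096 TPM in the controls and 8608 to 8755 TPM with LPL overexpression). Rpl24 stands below the other genes at 1.57 to 4.07 TPM.

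The members differed little between the groups. Of the 79 tested, 3 rose with LPL overexpression (Rps27l, Rpsa and Rplp1), 13 fell, and 63 did not pass (edgeR's quasi-likelihood test, adjusted p under 0.05 over all 13639 genes tested). The called share was 20.3%, where the background over all genes tested was 43.2% (21.9% higher and 21.3% lower). The median log2 fold change was -0.01 for the members and 0.00 for all genes, and the median absolute log2 fold change was 0.03 and 0.12. Rpl5, with the largest difference among called members, fell by 9.45%. For 78 of the 79 members the 95% interval of the fold change lay within 1.25-fold in either direction, and for 70 of them within 1.1-fold. The exception at 1.25-fold was Rpl24, with 13 to 35 reads per library. The libraries of the 2 groups did not overlap in TMM-scaled CPM (counts per 1000000 with library sizes scaled by edgeR's TMM factors, the unit of the levels in CPM from here on) for 14 members, 5 higher and 9 lower, a share below the 44.6% of all genes tested.

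The counts of called members moved when single libraries were left out. Without control replicate 2, 4 rose and 7 fell, without control replicate 3, 8 rose and 6 fell, and without LPL overexpression replicate 4, 9 rose and 7 fell. In these fits 5155 of 13787, 5378 of 13843 and 5716 of 13454 genes were called, against 5888 of 13639 with all libraries.

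**Figure D2:**
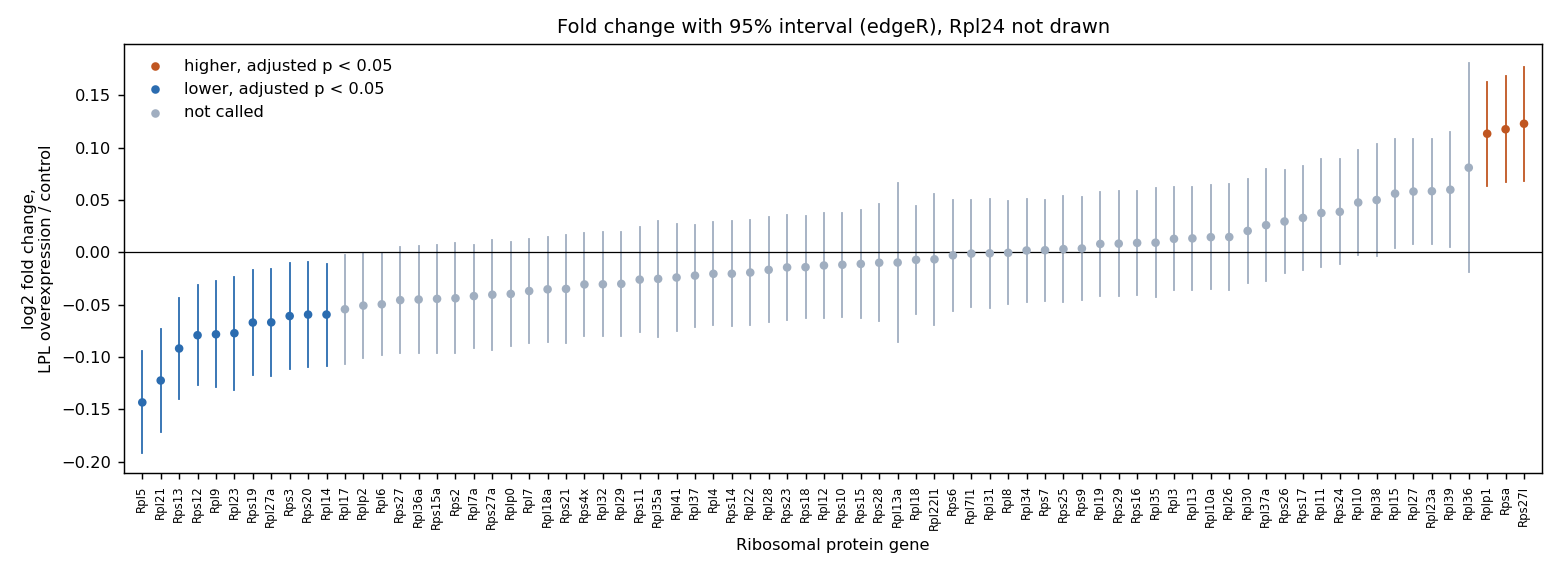
Log2 fold change of LPL overexpression over control (y axis) for 76 tested ribosomal protein genes in order of size (x axis), with the 95% interval from edgeR as a line; orange marks the 3 genes called higher, blue 11 of those called lower and grey those not called. All points lie between -0.14 for Rpl5 and 0.12 for Rps27l, and Rpl24, at 0.42 with an interval of -0.07 to 0.91, is not drawn.

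As the members are highly expressed, they were also set beside other genes of high level. Of the 76 members with a mean of at least 100 CPM, 16 (21.1%) were called, 3 higher and 13 lower. Of the 2342 other genes at that level 59.4% were called, 409 higher and 982 lower. The median log2 fold change was -0.01 for the members and -0.04 for the other genes, and the median absolute value 0.03 and 0.08. The middle of the member distribution, from the lower to the upper quartile, spanned -0.04 to 0.01, and that of the other genes -0.13 to 0.04. No member at that level, and 6.23% of the other genes, differed by 1.25-fold or more. The spread between replicates was similar, with a median coefficient of variation of 2.36% for the members and 1.92% for the other genes in the controls, and of 1.79% and 2.33% with LPL overexpression.

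**Figure D3:**
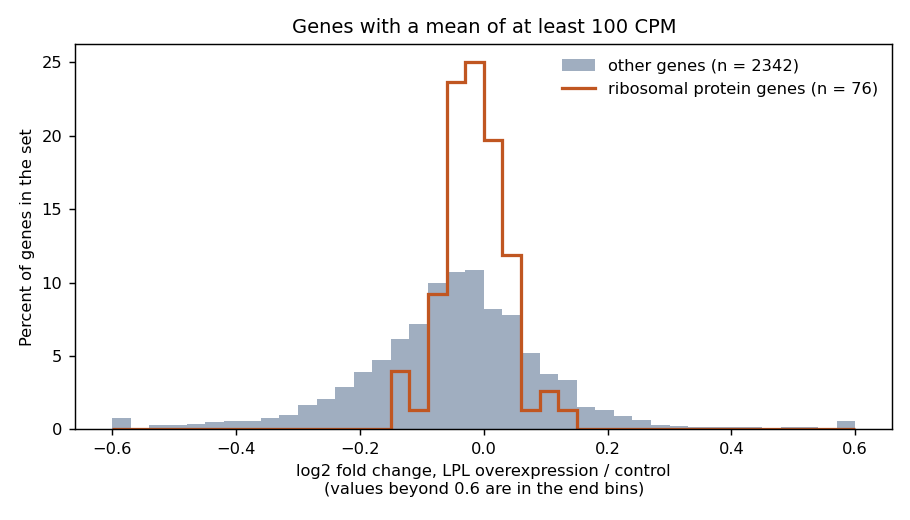
Distribution of the log2 fold change of LPL overexpression over control (x axis) as percent of genes per bin (y axis), for the 76 ribosomal protein genes (orange line) and the 2342 other genes (grey) with a mean of at least 100 CPM. The ribosomal protein genes fill a narrow band around 0 (median absolute value 0.03), inside the wider spread of the other genes (0.08).

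The stalk of the large subunit recruits the elongation factors and is formed by Rplp0, which carries pairs of Rplp1 and Rplp2, on a base that includes Rpl12. Rplp1 had 1184, 1181 and 1244 TMM-scaled CPM in control replicates 1 to 3 and 1291, 1321, 1290 and 1304 with LPL overexpression. Every LPL overexpression library was above every control, and the log2 fold change was 0.11 (SE 0.02, edgeR adjusted p = 1.49e-04). Its partner Rplp2 had 571, 587 and 596 CPM in the controls and 552, 553, 580 and 572 CPM with LPL overexpression. These groups overlap, and the log2 fold change of -0.05 (95% interval -0.10 to 0.00) did not pass (edgeR adjusted p = 0.0944), although it did without control replicate 1 (-0.07, adjusted p = 0.0496). Rplp0 was at -0.04 (SE 0.02) and Rpl12 at -0.01 (SE 0.02), and neither passed. Of the 4 stalk genes 1 rose and 0 fell (median -0.03), where 43.2% of all genes tested were called. Rplp1 lies on chromosome 9 (61913284 to 61914542, minus strand, mm10). Its 499 exonic bases equal the length of its principal transcript, and no other gene's exons on its strand overlap it.

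Rpsa and Rps27l were the members of the small subunit that rose. Rpsa, which also serves as a cell-surface receptor for laminin, had 1141, 1182 and 1206 CPM in the controls and 1256, 1311, 1287 and 1250 CPM with LPL overexpression, with no overlap. Its log2 fold change was 0.12 (SE 0.03, edgeR adjusted p = 1.15e-04). The gene lies on chromosome 9 (120127689 to 120132369, plus strand), holds 3 snoRNA genes, and shares 4.92% of its exonic bases with an annotated gene on the same strand. Rps27l, a paralogue of Rps27 known as a p53 target, had 137, 144 and 146 CPM in the controls and 156, 157, 153 and 154 CPM with LPL overexpression. Each LPL overexpression library was again above each control, and the log2 fold change was 0.12 (SE 0.03, edgeR adjusted p = 1.78e-04). It lies on chromosome 9 as well (66946086 to 66949516, plus strand).

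Since a ratio of 2 genes within a library does not depend on how libraries are scaled, the paralogues were also compared with their parent genes. Rps27l stood at 0.788, 0.798 and 0.825 times the TPM of Rps27 in the controls and at 0.929, 0.918, 0.877 and 0.888 times with LPL overexpression. The ratio was higher in 4 of 4 LPL overexpression libraries, by 0.17 on the log2 scale. The two-sided p by exact permutation of the 7 libraries was 0.0286, which is the lowest that 35 splits allow. Adjusted over the 3 pairs tested it did not pass (Benjamini-Hochberg adjusted p = 0.0857). However large its shift, a pair alone at that lowest p could not pass this adjustment, so the adjusted p cannot decide here. Rps27 itself had 222, 230 and 227 CPM in the controls and 215, 218, 223 and 221 CPM with LPL overexpression, which overlap, and its log2 fold change was -0.05 (SE 0.03, not passing). Nearly all of its principal transcript, 98.7% of 50-base stretches, is shared with at least one other annotated gene, so its level is uncertain where the counting divides or drops such reads. The ratio of Rpl7l1, a homologue with a role in assembly of the large subunit, to Rpl7 was 0.155, 0.152 and 0.153 in the controls and 0.158, 0.155, 0.156 and 0.160 with LPL overexpression. These differed by 0.04 on the log2 scale (exact permutation p = 0.114, adjusted p = 0.171). For Rpl22l1 over Rpl22 the control ratios ran from 0.649 to 0.690 and the others from 0.663 to 0.702, a difference of 0.01 (exact permutation p = 0.714, adjusted p = 0.714).

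Rpl5 and Rpl11 bind 5S ribosomal RNA and enter the large subunit with it, and free of the ribosome they inhibit Mdm2. Rpl5 had 871, 892 and 883 CPM in the controls and 784, 821, 802 and 787 CPM with LPL overexpression. No library of one group reached the range of the other, and the log2 fold change was -0.14 (SE 0.02, edgeR adjusted p = 2.14e-06), the lowest adjusted p of all members. Rpl11 had 320, 337 and 335 CPM against 339, 353, 336 and 330 CPM. Its groups overlap, and its log2 fold change of 0.04 (95% interval -0.01 to 0.09) did not pass. A difference between Rpl5 and Rpl11 in their response was not tested. Rpl5 lies on chromosome 5 (107900502 to 107909005, plus strand) with 3 snoRNA genes in it.

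Among other genes of the large subunit, 5 fell. Rpl21 had 1111, 1157 and 1151 CPM in the controls and 1028, 1063, 1050 and 1048 CPM with LPL overexpression, which do not overlap, and its log2 fold change was -0.12 (SE 0.02, edgeR adjusted p = 3.60e-05). It lies on chromosome 5 (146832890 to 146837032, plus strand) and holds 2 snoRNA genes. Rpl9 had 954, 1014 and 1021 CPM in the controls and 924, 954, 953 and 944 CPM otherwise. Its lowest control fell within the range of the other group, and its log2 fold change was -0.08 (edgeR adjusted p = 0.00935). Rpl23, which like Rpl5 and Rpl11 can bind Mdm2, had 716, 787 and 724 CPM against 701, 719, 707 and 687 CPM, with a log2 fold change of -0.08 (edgeR adjusted p = 0.0169). Its call rested on control replicate 2, the highest library, and without it the log2 fold change was -0.03 (adjusted p = 0.397). Without LPL overexpression replicate 4 it also missed the threshold (adjusted p = 0.0631), as did Rpl9 without control replicate 2 (0.0835) or 3 (0.117). Both also missed it with upper-quartile factors (adjusted p = 0.0785 for Rpl9 and 0.102 for Rpl23), with limma on log2(TPM + 0.5) (0.100 and 0.213) and with library totals (0.213 and 0.263), where both log2 fold changes were -0.04. Each was called in 12 of the 17 alternative settings. Rpl27a and Rpl14, named after their values were seen, fell by 4.53% and 4.04%. Rpl27a missed the threshold without any 1 of control replicates 2 and 3 and LPL overexpression replicates 1, 2 and 4 (adjusted p = 0.0654 to 0.150). Rpl14 missed it without control replicates 2 or 3 or LPL overexpression replicates 1, 3 or 4 (adjusted p = 0.0642 to 0.251). In all, 1 of the 48 tested large subunit genes rose and 6 fell (median -0.01). This called share of 14.6% was below the 43.2% of all genes tested (21.9% higher and 21.3% lower).

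The peptide exit tunnel is the channel through which the growing chain leaves the large subunit, and 6 members line it or its mouth (Rpl4, Rpl17, Rpl23a, Rpl26, Rpl35 and Rpl39). None passed by edgeR at the adjusted threshold, where 43.2% of all genes tested did. Before adjustment 3 had an interval that excluded 0, Rpl23a at 0.06 (0.01 to 0.11), Rpl39 at 0.06 (0.00 to 0.11) and Rpl17 at -0.05 (-0.11 to 0.00). Rpl23a had all 4 LPL overexpression libraries above the controls and was called higher in 10 of the 17 alternative settings, while with both read orientations counted its log2 fold change was -0.07 (adjusted p = 0.636). Rpl39 passed without control replicate 2 (0.08, adjusted p = 0.0291), control replicate 3 (0.08, 0.0343) or LPL overexpression replicate 4 (0.07, 0.0415). Rpl39 was also called higher with library totals, with upper-quartile factors and with limma on log2(TPM + 0.5).

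In the small subunit 2 of 31 tested genes were called higher and 7 lower (median -0.01). This called share of 29.0% was below the 43.2% of all genes tested (21.9% higher and 21.3% lower). Rps13 had 425, 429 and 427 CPM in the controls and 393, 406, 398 and 406 CPM with LPL overexpression, with no overlap and a log2 fold change of -0.09 (SE 0.02, edgeR adjusted p = 0.00140). Rps12 had 823, 840 and 834 CPM against 779, 785, 799 and 787 CPM, also apart, with a log2 fold change of -0.08 (edgeR adjusted p = 0.00514).

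Rps19, the gene most often mutated in Diamond-Blackfan anaemia, a red cell aplasia caused by defects in ribosomal proteins, had 369, 369 and 386 CPM in the controls and 363, 359, 360 and 348 CPM with LPL overexpression, which do not overlap. Its log2 fold change was -0.07 (edgeR adjusted p = 0.0255), and it missed the threshold without control replicate 3 (0.262) or LPL overexpression replicate 4 (0.146). Of 18 tested genes known from that disease, 0 rose and 2 fell (Rpl5 and Rps19), with a median of 0.01. Their called share of 11.1% was below the 43.2% of all genes tested (21.9% higher and 21.3% lower). Rps3 and Rps20, named after their values were seen, fell by 4.13% and 4.04%, and both missed the threshold without any 1 of control replicates 2 and 3 and LPL overexpression replicates 1, 3 and 4 (adjusted p = 0.0635 to 0.275). Rps6, the small subunit protein that S6 kinases phosphorylate, had 297, 307 and 304 CPM in the controls and 302, 315, 304 and 288 CPM with LPL overexpression. Its groups overlap fully, and its log2 fold change was 0.00 (SE 0.03) with a 95% interval of -0.06 to 0.05.

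How many members were called in each direction depended on how the libraries were scaled to each other. With library totals alone 16 members rose and 3 fell, against 28.9% higher and 15.5% lower over all genes. With upper-quartile factors 10 rose and 4 fell, against 25.8% higher and 17.8% lower over all genes. The median of all genes moved from 0.00 to 0.04 with totals and to 0.02 with upper-quartile factors, and the median of the members moved with it, from -0.01 to 0.03 and 0.01. Relative to the median of all genes the members' median was between -0.03 and -0.01 in all 17 alternative settings, and 41 of the 79 members kept their direction in each of them. Rplp1, Rpsa and Rps27l were called higher, and Rpl5 and Rpl21 lower, in every setting. Rps13 was called in 16 of 17 settings and Rps12 in 15. Rpl36, named after its values were seen, had the widest interval after Rpl24 (-0.02 to 0.18), with 281, 289 and 327 CPM in the controls against 323, 319, 311 and 311 CPM, where control replicate 3 was above all other libraries.

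**Figure D4:**
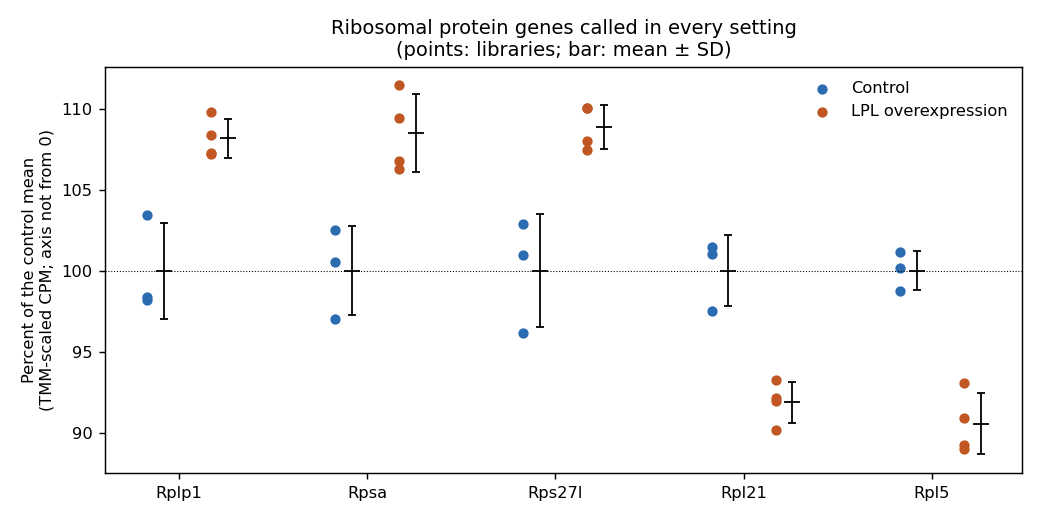
TMM-scaled CPM of 5 ribosomal protein genes called in every setting, as percent of the control mean (y axis, which does not start at 0), with 1 point per library and the mean ± SD beside the points, for 3 controls (blue) and 4 LPL overexpression libraries (orange). For each gene the groups do not overlap, with Rplp1, Rpsa and Rps27l above and Rpl21 and Rpl5 below the controls.

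**Figure D5:**
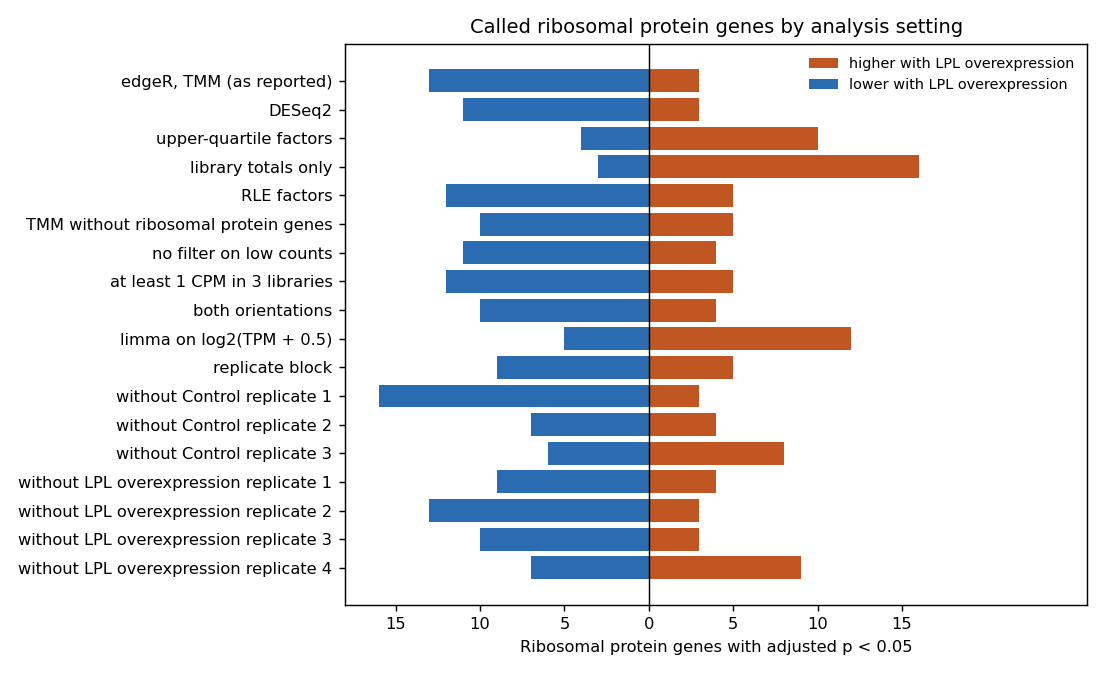
Number of ribosomal protein genes called higher (orange, to the right) or lower (blue, to the left) with LPL overexpression (x axis) in each analysis setting (y axis, from the fit as reported through other scalings and filters to leaving out 1 library). Calls run from 3 higher and 16 lower without control replicate 1 to 16 higher and 3 lower with library totals only.

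The 6 members not tested for low counts were Rps4l, Rps12l1, Rpl6l, Rpl10l, Rpl39l and Rpl3l. Rpl10l and Rpl39l, autosomal copies of X-linked genes with known use in the testis, and Rps4l had no read in any library, which allows a level of up to 0.0160 CPM over the 7 libraries (3 counts, counting error only). Rpl3l, the muscle form of Rpl3, had 0, 1 and 1 reads in the controls and 1, 0, 1 and 0 otherwise. Rps12l1 had no control read and 0, 1, 0 and 1 reads with LPL overexpression. Rpl6l had 5, 5 and 4 against 0, 4, 0 and 4 reads. Rps4l, Rps12l1 and Rpl6l are annotated as pseudogenes in GENCODE vM21.

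The level of some members is limited by annotation. Rpl24 had 24, 22 and 13 reads in the controls and 18, 29, 23 and 35 with LPL overexpression, while each other tested member had at least 1345 reads in each library. Of its exonic bases 47.0% lie in exons of Gm28037 on the same strand, which has 0 reads in the files. Its log2 fold change of 0.42 (SE 0.24, edgeR adjusted p = 0.169) has a 95% interval of -0.07 to 0.91. For Rpl13a 35.4% of exonic bases overlap other genes of its strand (Gm45713, Mir5121 and Snord33), and for Rps10 20.6% (RPS10-NUDT3). Over the 82 members with a principal transcript, the median share of 50-base stretches found in another annotated gene was 53.5%, and 47 members had most of theirs shared. How the counting treated reads that fit several genes is not given in the sources used here, so the levels of these genes are uncertain. Across the 79 tested members, log2 fold change and shared share had a Spearman rho of 0.05.

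SnoRNA genes sit within 29 of the 85 members, all tested (36.7% of the 79), where 1.53% of 11888 other tested protein-coding genes hold one. Of the 29 hosts 1 rose and 9 fell (median log2 fold change -0.04). Of the 50 tested members without snoRNA genes 2 rose and 4 fell (median 0.00), and of the 182 other protein-coding hosts 29 rose and 52 fell (median -0.02). The background was 21.9% higher and 21.3% lower over all genes tested. It was 17.5% higher and 41.9% lower over the 2342 genes outside the ribosomal protein set with a mean of at least 100 CPM. The difference between hosts and other members was not tested. Across the 79 members, log2 fold change and the number of snoRNA genes had a Spearman rho of -0.31, given as a description of genes that share their libraries. Rpl5, Rpl21, Rps13, Rps12 and Rpsa are hosts, and Rplp1 and Rps27l are not.

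Some ribosomal proteins have symbols outside the name rule. Of 5 such genes tested, 0 rose and 1 fell. Fau, which encodes Rps30 fused to a ubiquitin-like protein, stood at 366 ± 11.7 CPM in the controls and 348 ± 10.4 CPM with LPL overexpression, and fell (log2 fold change -0.07, SE 0.03, edgeR adjusted p = 0.0256). Rack1, a scaffold protein on the small subunit, was at 2302 ± 57.8 and 2257 ± 41.6 CPM (log2 fold change -0.03, SE 0.02). Ribosomal proteins of mitochondria, which form a separate ribosome, were 17 higher and 5 lower of 77 tested (of 78 in the files), with a median of 0.03 and a median absolute value of 0.07. The called share was 20% for the genes outside the name rule and 28.6% for the mitochondrial set, where it was 43.2% over all genes tested (21.9% higher and 21.3% lower). The difference between cytosolic and mitochondrial ribosomal protein genes was not tested.

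No gene rose and several fell in the lists of TOP translation factors and of ribosome assembly factors, beside a background of 21.9% higher and 21.3% lower over all genes. All 19 TOP factors and 18 of the assembly factors had a mean of at least 100 CPM. At that level 36.8% of the TOP factors (7) and 44.4% of the assembly factors (8) fell, near the 41.9% of the 2342 other genes outside the ribosomal protein set. Of 19 tested translation factors and partners whose messengers also carry TOP tracts, 0 rose and 7 fell, with a median of -0.06. Pabpc1, the main cytoplasmic poly(A)-binding protein, fell from 1918 ± 42.9 to 1648 ± 38.9 CPM (log2 fold change -0.22, SE 0.03). Btf3, part of the nascent chain complex, and Eif3f, an initiation factor subunit, both had -0.11 (SE 0.03). Of 39 tested assembly factors, 0 rose and 15 fell, with a median of -0.02. Eif6, which keeps the large subunit from joining too early, fell from 326 ± 6.57 to 265 ± 2.58 CPM (log2 fold change -0.30, SE 0.02). The nucleolar protein gene Lyar had -0.23 (SE 0.03) and Nob1, the nuclease that matures 18S ribosomal RNA, -0.22 (SE 0.04). Among 10 chaperones and importers of ribosomal proteins, 1 rose and 2 fell. Ipo7, an import receptor of ribosomal proteins, fell from 910 ± 11.7 to 772 ± 17.6 CPM, Nap1l1 fell from 446 ± 11.6 to 427 ± 4.09 CPM, and Ipo5, a related receptor, rose from 156 ± 2.82 to 182 ± 3.43 CPM.

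RNA polymerase I makes the large ribosomal RNA precursor. Over all genes 21.9% were called higher and 21.3% lower (43.2% in all), and the called shares of the 3 lists that follow were 46.7%, 63.6% and 37.5%, so the first and the last were near that background. Of its 15 tested genes, 2 were called higher and 5 lower (median log2 fold change -0.03). Taf1b, a subunit of the promoter selectivity factor, fell by 0.21 on the log2 scale (SE 0.05) and Rrn3, the initiation factor, by 0.11 (SE 0.03), while Taf1d had 0.09 (SE 0.03). Myc drives many ribosome genes, and of 11 tested genes of its network 4 rose and 3 fell. Myc itself was at 91.4 ± 2.23 and 94.1 ± 1.1 CPM and did not pass (log2 fold change 0.04, SE 0.03). Mxd4, an antagonist of Myc, rose from 45.0 ± 3.29 to 55.4 ± 1.12 CPM, Mlx had 0.20 (SE 0.04) and Mga, another factor that pairs with Max, -0.18 (SE 0.03). Of 24 tested genes of mTORC1 and of TOP translation control, 4 were called higher and 5 lower (median 0.02). Eif4ebp1, the repressor of cap-dependent initiation that mTORC1 releases, fell from 202 ± 4.82 to 174 ± 2.83 CPM, and Deptor, an mTOR inhibitor, rose from 29.8 ± 1.98 to 36.8 ± 1.26 CPM. Rragd, a GTPase that recruits mTORC1 to lysosomes, had no control read and 2.47 ± 0.198 CPM with LPL overexpression, at least 66.5-fold above the control floor of 0.0372 CPM (3 counts over the group). The LPL overexpression libraries are those with the pigment cell markers given above, and which cells gave the Rragd reads was not tested.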

How the data were processed

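Reads were aligned with STAR to mm10, per the submitters' processing notes (versions, annotation release and counting settings: not given in the sources used here). Total RNA was extracted on Qiagen columns and libraries were made with a stranded TruSeq total-RNA kit, per the labels' protocols. The authors deposited whole-number read counts per gene for each orientation, and the reverse orientation, the sense strand of this kit, was used. The deposited TPM values of that orientation sum to 1000000 per library and were used as levels and for ratios within a library. Every row names a gene, and no column of another sample was present.

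Counts were tested with edgeR 4.0.16 (R 4.3.3; quasi-likelihood F test, TMM, filterByExpr by group, robust fit, group as the only term), adjusted by Benjamini-Hochberg over 13639 genes, threshold 0.05. Standard errors were taken as the size of the log2 fold change divided by the root of its F value. On simulated counts for this comparison (13594 genes tested), 16%, 74%, 90% and 96% of 50 genes each changed by 1.1, 1.25, 1.5 and 2 times were recovered, and 4 unchanged genes were called. Alternatives were DESeq2 1.42.0, limma 3.58.1 on log2(TPM + 0.5), other scalings and filters, both orientations, the replicate block and leaving out each library. Overlaps, snoRNA genes and shared 50-base stretches came from GENCODE vM21 (same build), where all 85 identifiers were found and 67 had the same exonic length. Promoter sequences are RefSeq's. Genes were named by a rule: up to 8 called members per direction with at least 2 CPM, the 6 highest and 6 lowest levels, paralogues with their parents, 7 members of known role, untested members, and up to 3 genes of each list by adjusted p. Others are marked as named after their values were seen. Members and lists were chosen with earlier results of these data known. The precision is set by the depth of 24328418 to 29210847 counts, and since reads carry no molecular identifiers, limits from counts cover counting error only. Some genes are not reported here by name, and they stay in the counts and medians.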

Additional observations from a re-analysis of the deposited data

How the results depend on the processing

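The number of ribosomal protein genes called higher was 3 as reported, and it was 10 with upper-quartile factors, 16 with library totals only, 12 with limma on log2(TPM + 0.5), and 5 each with RLE factors, with TMM factors computed without the ribosomal protein genes, with a filter of at least 1 CPM in 3 libraries and with the replicate block. Leaving out 1 library at a time gave 3 to 9. The number called lower was 13, and it was 4 with upper-quartile factors, 3 with library totals only and 5 with limma, with 6 to 16 when 1 library was left out. DESeq2 called 3 higher and 11 lower. Over all genes, 5888 were called as reported and 4677 to 6053 in the 17 alternatives. For the named members and Lpl, 480 alternative values stayed on the same side of the threshold, 17 lost the call and 12 gained one, and no called value changed direction. The members' share of counts was 4.94% in the controls and 5.02% with LPL overexpression when only genes of at least 10 counts outside the mitochondrial chromosome were summed. The cause of these shifts was not tested, beyond the move of the all-gene median with the scaling. Same-numbered libraries of the groups did not deviate together (correlations 0.03, 0.01 and 0.01 over 9013 genes), so the replicate block result, 5 higher and 9 lower, rests on shared numbers only. The simulated recovery of 16% at 1.1-fold was for genes of all levels with a fixed spread, so it does not give the recovery for the highly expressed members. Most member values were below 1.1-fold, with a median absolute log2 fold change of 0.03, and for 70 of 79 the 95% interval lay within 1.1-fold.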

Other observations

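The 3 ribosomal protein genes that rose all lie on chromosome 9, among 7 tested members there, of which Rpl14 fell and Rps25, Rpl4 and Rpl29, named after their values were seen, did not pass. The median log2 fold change of those 7 members was 0.00, and that of all 799 tested genes on chromosome 9 was 0.01. On chromosome 5, 3 of 5 tested members fell (Rpl5, Rpl21 and Rpl9) with a member median of -0.08, where the median of all 958 tested genes was -0.05, the lowest of the chromosomes that hold a tested member. Chromosome 7 holds 14 tested members, the most of any chromosome, of which 0 rose and 5 fell (median -0.04 for these members, -0.02 for all 1019 genes). Over all genes tested 21.9% were called higher and 21.3% lower, and over other genes with a mean of at least 100 CPM 17.5% and 41.9%. The members per chromosome are few, and whether their calls cluster by chromosome was not tested.

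Noncoding genes that host snoRNAs, chosen after their values were seen (Gas5 and genes with Snhg symbols), gave 1 rise and 3 falls among 13 tested. The background over all genes tested was 21.9% higher and 21.3% lower. Gas5, which carries a TOP tract like the ribosomal protein genes, was at 314 ± 4.38 CPM in the controls and 294 ± 5.78 CPM with LPL overexpression, and fell (log2 fold change -0.09, SE 0.02, edgeR adjusted p = 0.00130). Snhg6 fell from 66.8 ± 2.81 to 55.7 ± 1.02 CPM and Snhg14 from 1.96 ± 0.234 to 1.45 ± 0.312 CPM, while Snhg1 rose from 104 ± 0.865 to 112 ± 5.03 CPM.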
